A study of Mus musculus with 24 samples.

Results

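The ligands described here are 10 mouse genes whose products restrain T cells, natural killer cells or macrophages from the surface of another cell. They were chosen by name, and probes were joined to them through RefSeq accessions. All 10 were found among the 22911 gene symbols of the array, with 1 to 3 probes each, and the brightest probe stood for its gene. Cd274 and Pdcd1lg2 encode PD-L1 and PD-L2, which engage the receptor PD-1 on T cells and dampen their activity. Cd80 and Cd86 bind CD28, which activates T cells, and CTLA-4, which holds them back. Cd276 encodes B7-H3, a relative of these proteins. Cd47 engages SIRPα on macrophages and protects a cell from being engulfed. Lgals9 encodes galectin-9, a ligand of TIM-3, which is the product of Havcr2. Pvr and Nectin2 bind TIGIT, which inhibits T and natural killer cells, and CD226, which activates them. Cd200 engages its receptor on myeloid cells. Tumours use several of these ligands to persist under immune attack, and interferon gamma is a well known inducer of PD-L1.

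RNA of 7 mouse cell lines was measured on 24 arrays of 1 colour. B16-M, a B16-F1 melanoma line that carries GFP (3 arrays), is the parent of the dormant line B16-D (4 arrays). The lines B16-D-733 (4 arrays), B16-D-735 (3) and B16-D-739 (3) are read as the later dormant lines that the study took from a brain site, although the labels do not say which number is which of them. M0-p20 (4 arrays) is a leukemia line and J365-p20 (3 arrays) its dormant counterpart, read here as the parental and dormant DA1-3b lines of the study, which the labels do not state. All 7 groups are cultured lines, as the study expanded the dormant cells in vitro after recovering them from its immunotherapy mice. The labels give DMEM with 10% serum for the melanoma lines, and the leukemia arrays carry the same growth text, which names the melanoma lines alone. No other treatment is named for any group. Whether the arrays of a line came from separate cultures is not stated, so every p-value measures only the spread between these arrays. The labels of replicates 1 to 3 of B16-D and of B16-D-733 carry a date that they share, no other label carries one, and what the date marks is not stated. It was added as a block (label date) after seeing the data. Replicate 0 of B16-D, the 1 array of that line without the date, has the line name 16D in its label and was read as B16-D. In B16-D-733 the labels give 2 arrays the number 1, and 1 of these was read as replicate 3. Arrays whose label has no number after the line name, replicate 0 of each line and replicate 2 of B16-D-735, were numbered from the prefix of the label.

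The arrays lay on 3 slides of 8, and each carries 59305 spots besides its controls. Between 46.0% and 55.8% of the spots were well above the local background on 23 arrays, against 90.3% on replicate 2 of B16-D. That array was left out, a choice made with earlier results of these data known, and each ligand or named gene whose call or direction in a comparison with B16-D turned with it is given with it as well. Each level is a log2 intensity from which the 75th percentile of its array was subtracted, so that 0 is a rather bright spot, and a gene counts as detected in a line when its probe was well above background on at least 50% of the arrays. The brightest gene of a list is named as the probe of highest intensity, which does not order the amounts of RNA, and levels of different probes are not otherwise compared with each other. Where the arrays of lines are said to lie apart, the share of all genes for which that holds is not given here. An array reports the RNA of a whole culture, so fewer cells that express a gene and less RNA per cell cannot be told apart.

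The labelled cell types were checked against marker genes. All 7 melanocyte markers were detected in each melanoma line, 4 in M0-p20 and 3 in J365-p20, with a summed level between 1404 and 1659 times the 75th percentile on the melanoma arrays and between 1.49 and 6.44 times on the leukemia arrays. Here the level of Mlana, a melanosome antigen, was between 8.56 and 8.89 on the melanoma arrays that were used. Of 8 haematopoietic markers 7 were detected in each leukemia line and 5 in each melanoma line, with a summed level between 44.08 and 60.39 in leukemia and between 7.0 and 12.05 in melanoma. Ptprc, 1 of them, which encodes the leukocyte antigen CD45, was not above background on any melanoma array and lay at 2.66 ± 0.32 (SD, n = 4) in M0-p20 and 2.94 ± 0.13 (n = 3) in J365-p20. Kit, another of them, went the other way, with a mean of -1.31 in B16-M and no M0-p20 array above background. Of the 8 markers, 6 were higher and 1 lower in M0-p20 than in B16-M by the adjusted threshold of limma. Of 6 markers of antigen-presenting cells, 0 were detected in any melanoma line, 3 in M0-p20 and 2 in J365-p20. Their summed level lay between 0.05 and 0.14 times the 75th percentile on the melanoma arrays. Of 5 T and natural killer cell markers 3 were detected in each of the 7 lines. Their summed level lay between 6.75 and 12.21 in M0-p20, between 5.44 and 7.96 in J365-p20 and between 1.37 and 3.81 in melanoma. The brightest of them in leukemia was Cd3d, at a mean of 2.71 in M0-p20 and 1.62 in J365-p20. The summed level of melanocyte markers was thus higher in melanoma and that of haematopoietic markers in leukemia, while some markers of other cells were detected as well.

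Each melanoma line expressed the same 7 ligands, namely Cd274, Cd80, Cd276, Cd47, Lgals9, Pvr and Nectin2. Pdcd1lg2, Cd86 and Cd200 were detected in none of the 5 melanoma lines. On replicate 2 of B16-D, the array left out, the level of Pdcd1lg2 was -3.90, that of Cd86 -2.97 and that of Cd200 -4.51, each above background. The single other melanoma array with a Cd86 signal was B16-M replicate 0, at -3.30. M0-p20 expressed 8 ligands, the same 7 and Pdcd1lg2. J365-p20 expressed 7, since the brightest Nectin2 probe was above background on 1 of its 3 arrays, while another Nectin2 probe was so on 2 and brought the count to 8. With the scanner's looser mark for a signal above background, the counts rose to between 8 and 10 per line. With that mark Cd86 and Cd200 were detected in B16-M, Cd86 without Cd200 in B16-D, Cd200 without Cd86 in B16-D-733, B16-D-735 and B16-D-739, Pdcd1lg2 also in B16-D-733, and Cd86 in J365-p20 but not in M0-p20. With the stricter mark used here, the set of detected ligands differed between the cell types, and no dormant line gained or lost a detected ligand except for Nectin2 at the background in J365-p20.

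**Figure D1:**
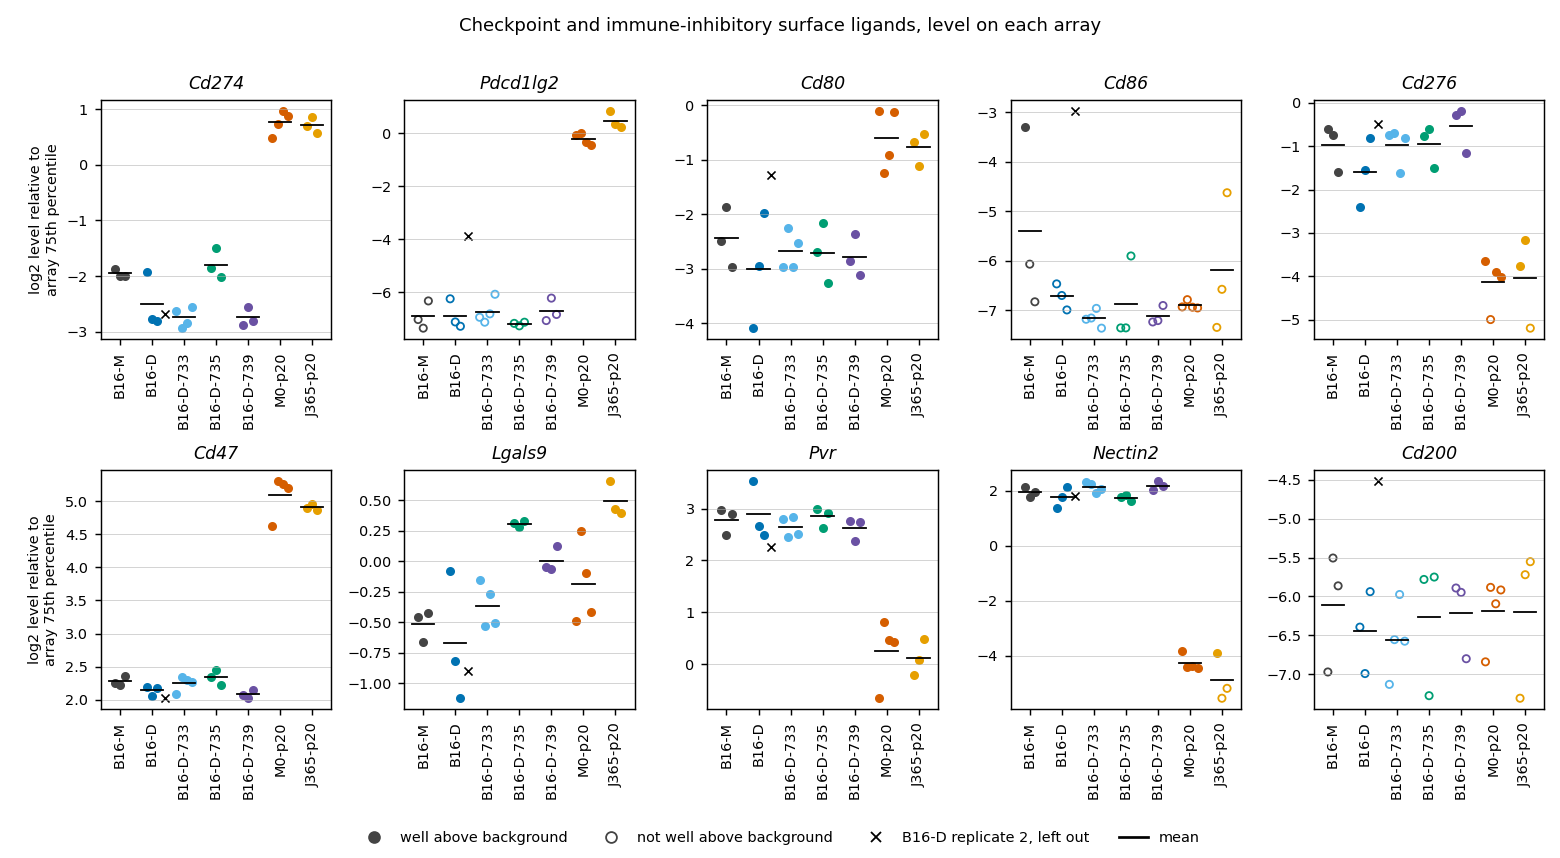
Level of each of the 10 ligands on every array, as log2 intensity relative to the 75th percentile of the array (vertical axes differ between genes), by line, with filled points well above background, hollow points not, a cross for the array left out and a bar for the mean. Cd274, Cd80 and Cd47 sit higher in both leukemia lines, Pvr, Nectin2 and Cd276 sit higher in the 5 melanoma lines, and Cd200 and Cd86 have hollow points on all arrays used except for Cd86 on B16-M replicate 0.

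The dormant line B16-D was compared with parental B16-M to see which ligands differ after dormancy in melanoma. No ligand passed the test, while Havcr2, the galectin-9 receptor gene, fell and Lgals3, which encodes the immunosuppressive lectin galectin-3, rose. The PD-L1 gene Cd274 had levels of -1.87, -2.0 and -1.99 in B16-M and -1.92, -2.77 and -2.81 in B16-D replicates 0, 1 and 3. Replicates 1 and 3 of B16-D lay below all B16-M arrays, and replicate 0 lay among them. The log2 fold change was -0.55 (95% interval -1.02 to -0.08, adjusted p = 0.212 from limma). Within slides it was -0.35 on slide 1, where replicate 0 lies, and -0.94 on slide 3. Without replicate 0 it was -0.84 with an adjusted p of 0.0145, the single alternative that brought Cd274 past the threshold, and with replicate 2 included it was -0.60 (adjusted p = 0.162). With label date as a block it was -0.23 (adjusted p = 0.572), and replicate 0, the array without the date, lay 0.03 above the mean of B16-M. One array thus decided whether Cd274 counted as changed, and it is the one with the line name 16D.

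The other 6 ligands that could be tested had log2 fold changes between -0.61 (Cd276) and 0.11 (Pvr). Cd47 arrays of B16-D lay below those of B16-M, with a log2 fold change of -0.13 (adjusted p = 0.585). Of the 7 tested, 0 passed the adjusted threshold and 1, Cd274, had an unadjusted p under 0.05 (0.0254). In every count over all genes, entries of the array without a gene symbol are counted as genes too. Among all 24310 genes of the fit, 876 passed (3.6%), with 486 up and 390 down in B16-D, and without adjustment 4034 genes had p under 0.05. This count ranged from 86, with only these lines in the fit, to 1248 with slide as a block. Scaling by the median of each array moved the median log2 fold change of all genes from -0.04 to 0.11 and gave 255 higher and 110 lower genes. Replicate 0 also had the highest Lgals9 level of the line, at -0.08 against -0.82 and -1.12, while B16-M had -0.46, -0.66 and -0.43. The Lgals9 arrays of the lines overlapped, with a log2 fold change of -0.16 (adjusted p = 0.759).

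Among the receptors of these ligands, 1 of 3 tested genes fell and 0 rose. Havcr2 had levels of -0.51, -0.64 and -0.60 in B16-M and -1.82, -2.15 and -2.30 in B16-D, without overlap. It fell by 1.51 on the log2 scale (adjusted p = 3.04e-04), and it passed under all 18 alternatives. Sirpa, the gene of the Cd47 receptor, chosen after its values were seen, was at 3.90 ± 0.17 (SD, n = 3) in B16-M and 3.83 ± 0.10 (n = 3) in B16-D, which did not differ beyond the spread. Of the 8 tested genes for other inhibitory or costimulatory ligands, 1 rose. This was Lgals3, at 5.05, 4.28 and 4.62 in B16-M and 7.55, 5.99 and 6.24 in B16-D, with a log2 fold change of 1.94 (adjusted p = 0.0232). The Lgals3 call was lost without B16-D replicate 0 (1.46, adjusted p = 0.0549), without B16-M replicate 1 (0.114) or 2 (0.0764), with only these lines in the fit (0.248) and with median scaling (0.0526).

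In the path from interferon gamma to PD-L1, all 10 genes were tested, 1 fell and 0 rose. Ifngr1, a chain of the interferon gamma receptor, had levels of 1.06, 1.13 and 1.32 in B16-M and -0.03, 0.49 and 0.66 in B16-D, and it fell by 0.79 (adjusted p = 0.0137). Without B16-M replicate 2 its adjusted p was 0.0661, and 0.341 with only these lines in the fit. None of 8 genes for PD-L1 stability and turnover, 7 of classical MHC class I presentation and 4 for soluble inhibitors passed. Markers of other cells moved too. Pdgfrb, a pericyte and fibroblast receptor gene, was not above background on any B16-M array and was at least 2.39-fold higher in B16-D. A bound of this kind sets each array of the dimmer line no lower than the lowest level that was well above background on it. It holds for the intensities as reported. With a normexp correction, the log2 fold change of each gene that is given such a bound in this text was smaller than the bound, 0.83 for Pdgfrb in B16-D. Pdgfrb was 1 of 5 fibroblast markers past the threshold. The summed level of these markers was 0.60, 0.67 and 0.75 in B16-M and 0.55, 0.68 and 0.74 in B16-D, with Col1a2 the brightest, 2 of the 5 above background on no B16-M array (Pdgfrb and Dcn) and 2 on no B16-D array (Col1a1 and Dcn). H60b, a ligand of the activating receptor NKG2D chosen after its values were seen, was the 1 of 4 NKG2D ligands past the threshold, but as it was above background on 1 of 3 B16-D arrays and on no B16-M array, no fold is given. It was above background on replicate 2 as well (-2.90), which makes 2 of 4 arrays, and its call was lost with a normexp correction (adjusted p = 0.196). Il3ra, a cytokine receptor gene and 1 of 5 tested haematopoietic markers, rose by 1.27 (adjusted p = 0.0223), a call lost without B16-M replicate 0 (0.0568) or 1 (0.109), with B16-D replicate 2 (0.0654), with only these lines in the fit (0.342) and with median scaling (0.0898). The summed level of the haematopoietic list was 7.0, 7.05 and 9.54 in B16-M and 9.17, 10.18 and 11.27 in B16-D, where Il3ra was the brightest and 3 of the 8 listed genes were above background on no array. The part of these markers in the other results was not tested.

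**Figure D2:**
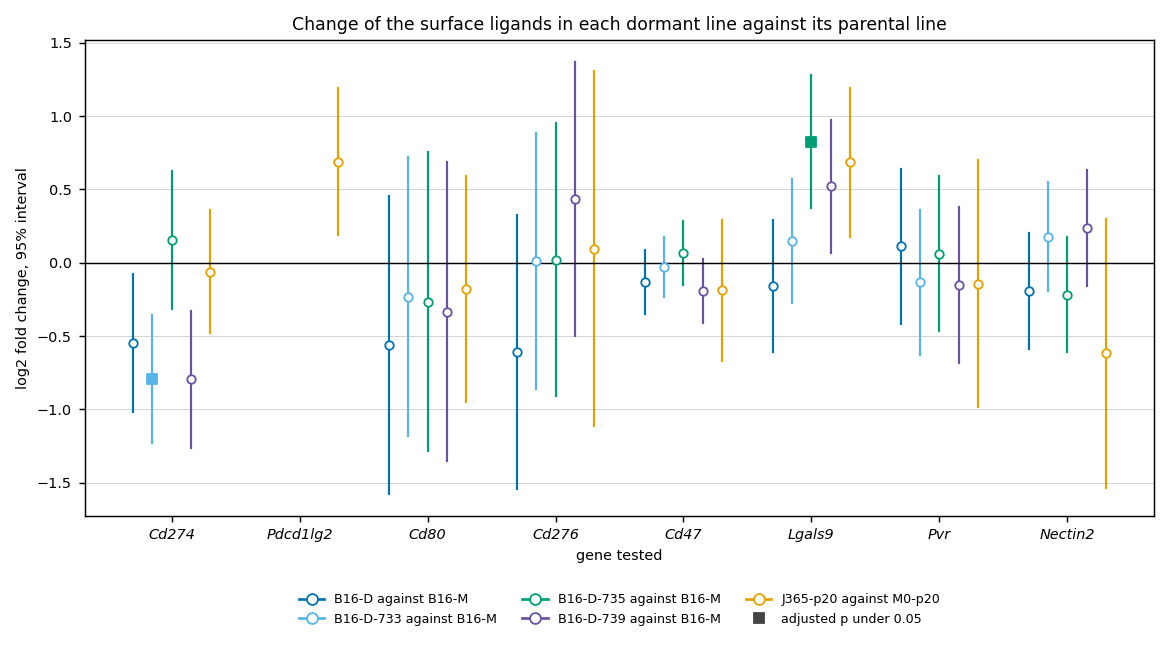
Log2 fold change of each tested ligand in the 5 dormant lines against their parental lines, with 95% intervals from limma, where filled squares mark an adjusted p under 0.05. The squares are Cd274 in B16-D-733 at -0.79 and Lgals9 in B16-D-735 at 0.83, and the 4 melanoma comparisons share the same B16-M arrays.

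Line B16-D-733 was compared with B16-M to follow the ligands into a later dormant line. In the fit without blocks its PD-L1 transcript fell, with Havcr2 and the gene of the secreted inhibitor TGF-β1. Transcripts of the MHC class I heavy chains rose. Cd274 had levels of -2.64, -2.94, -2.84 and -2.56 in B16-D-733, all below the B16-M arrays. Its log2 fold change was -0.79 (95% interval -1.23 to -0.35, adjusted p = 0.0383), a level 1.73-fold lower. The difference was -0.85, -0.64 and -0.88 on slides 1 to 3, and with slide as a block it passed as well (adjusted p = 0.0444). The call was close to the threshold. Replicate numbers were taken to pair these arrays with those of B16-M, although replicate 0 of both lines was numbered from the prefix of the label and replicate 3 has no B16-M partner, and with a replicate block the log2 fold change was -0.77 with an adjusted p of 0.0664. With label date as a block the log2 fold change was -0.43 (adjusted p = 0.33), while the 1 array without the date, replicate 0, lay 0.69 below the mean of B16-M. The call was also lost under quantile normalization (0.0774), median scaling (0.199) and without a filter (0.0851). It was lost in addition without any of the arrays, with adjusted p values of 0.103, 0.111 and 0.103 without B16-M replicates 0, 1 and 2 and 0.0632, 0.108, 0.0927 and 0.0546 without B16-D-733 replicates 0 to 3.

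Of the 7 ligands tested in B16-D-733, 1 passed the threshold, and among all genes 1355 did (5.57%), 774 higher and 581 lower, with 4249 at an unadjusted p under 0.05. The count over all genes ranged from 662 with median scaling to 2203 with slide as a block. The other 6 ligands had log2 fold changes between -0.23 (Cd80) and 0.18 (Nectin2). Lgals9 levels were -0.15, -0.53, -0.27 and -0.51, which overlapped those of B16-M (log2 fold change 0.15, adjusted p = 0.867). Cd47 was at 2.25 ± 0.12 (SD, n = 4) against 2.27 ± 0.07 (n = 3) in B16-M, so that its RNA was measured at the same level within its spread.

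Havcr2 was at -3.08, -2.75, -3.17 and -2.71 in B16-D-733, lower than on every B16-M and B16-D array. It fell by 2.34 against B16-M (adjusted p = 1.22e-06) and, as a comparison chosen after its values were seen, by 0.83 against B16-D (adjusted p = 0.0424). The call against B16-D held in 4 of 19 alternatives, with B16-D replicate 2 among them (0.0203), and was lost without any array of either line (0.0531 to 0.161). Against B16-M it passed under all 19 alternatives. Of 8 other ligand genes tested, 2 rose and 1 fell. Lgals3 had levels of 6.83, 6.59, 6.59 and 6.65 and rose by 2.02 (adjusted p = 0.0083, and 0.0531 without B16-M replicate 1). H2-T23, the gene of Qa-1, which engages an inhibitory receptor on natural killer cells, rose by 0.85 (adjusted p = 0.0222). Ceacam1, a ligand and adhesion gene, fell by 1.16 (adjusted p = 0.01, and 0.0587 without B16-M replicate 2). The H2-T23 call held in 12 of 19 alternatives and was lost without each B16-M replicate (0.0552, 0.098 and 0.0643), without B16-D-733 replicate 0 (0.0574) or 2 (0.056), with median scaling (0.179) and without a filter (0.0502).

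Tgfb1 was the 1 of 4 tested genes for soluble inhibitors that passed, at -2.89 ± 0.16 (SD, n = 4) against -0.69 ± 0.15 (n = 3), and it fell by 2.20 (adjusted p = 0.0056) and in 18 of 19 alternatives, but not with label date as a block (-1.41, adjusted p = 0.086). Of 7 tested genes of classical MHC class I presentation, 2 rose and 1 fell, with a median log2 fold change of 0.16 against 0.03 over all genes. H2-K1, a class I heavy chain that presents peptides to T cells, had levels of -0.08, -0.34 and -0.29 in B16-M and 0.77, 0.66, 0.61 and 0.73 in B16-D-733. It rose by 0.92 (adjusted p = 0.0132), with 0.068 without B16-M replicate 1, 0.0575 without its replicate 2 and 0.111 with median scaling. H2-D1, another heavy chain, rose by 0.83 (adjusted p = 0.0193). Its call was lost without B16-M replicate 0 (0.0526) or 1 (0.104), B16-D-733 replicate 0 (0.0543) or 2 (0.0541), with B16-D replicate 2 in the fit (0.0644) and with median scaling (0.181). Tapbp, which encodes the peptide-loading factor tapasin, fell by 1.04 (adjusted p = 0.0091), with 0.0516 without B16-M replicate 1, 0.0552 without its replicate 2 and 0.0961 with label date as a block. The log2 fold change of Tapbp lay between -1.25 and -0.59 over the alternatives. Class I genes therefore moved in both directions in this line.

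Ifngr1 levels in B16-D-733 were 0.41, 0.53, 0.51 and 0.67, below all B16-M arrays, and the gene fell by 0.64 (adjusted p = 0.0214). It was the 1 gene of the interferon gamma path that passed. Its call was lost without a filter (0.0581), without B16-M replicate 1 (0.0682) or 2 (0.103) and without B16-D-733 replicate 0 (0.0591), 1 (0.0557) or 2 (0.0535). Cmtm6, whose product keeps PD-L1 at the surface, rose by 0.49 (adjusted p = 0.0282). It passed with quantile normalization and slide as a block, but not with a normexp correction (0.0924), median scaling (0.197), no filter (0.0913), label date as a block (0.0859), only these lines in the fit (0.0983) or B16-D replicate 2 in it (0.0617). Without B16-M replicate 0 (0.0968) or 1 (0.131) or B16-D-733 replicate 0 (0.072), 2 (0.0653) or 3 (0.0776) it was lost as well. H60b was above background on all 4 B16-D-733 arrays, at -4.56, -4.23, -4.16 and -3.87, and on no B16-M array. It was at least 1.62-fold higher, and on the intensities as reported its adjusted p was 2.29e-06 from limma. With a normexp correction the log2 fold change of H60b was 0.47 (adjusted p = 0.0252). H60b was the 1 of 4 tested NKG2D ligands that passed.

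Marker genes of other cells moved in B16-D-733 as well. Mbp, a myelin gene and 1 of 4 tested brain markers, rose by 2.14 (adjusted p = 0.0038, and 0.0603 with label date as a block). The summed level of the brain markers was 0.88, 1.45 and 1.61 in B16-M and lay between 4.31 and 5.99, with a median of 4.75, in B16-D-733, with Mbp the brightest and 1 of 5 markers above background on no array. Pdgfrb, at least 4.54-fold higher (log2 fold change 1.18 with a normexp correction), was 1 of 5 fibroblast markers past the threshold, and their summed level lay between 0.64 and 0.89 with Col1a2 the brightest and 1 of the 5 above background on no array. Kit, a cytokine receptor gene that melanocytes also use, rose by 0.93 (adjusted p = 0.032) as 1 of 5 tested haematopoietic markers, whose summed level lay between 9.17 and 10.31 with Itgam the brightest and 3 of the 8 listed above background on no array. Its call held in 8 of 19 alternatives, and it was lost without each B16-M replicate (0.0831, 0.144 and 0.0569), without B16-D-733 replicates 1, 2 and 3 (0.0812, 0.0728 and 0.0515) with the replicate block (0.0507) and with label date as a block (0.285), among others. The part of these markers in the other results was not tested.

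Line B16-D-735 was compared with B16-M with the same question. Here the gene of galectin-9 rose and PD-L1 RNA did not fall, while Irf9, a transcription factor of interferon signalling, rose. Lgals9 had levels of 0.31, 0.28 and 0.33 in B16-D-735 against -0.46, -0.66 and -0.43 in B16-M. All B16-D-735 arrays lay above all B16-M arrays. The log2 fold change was 0.83 (95% interval 0.37 to 1.28, adjusted p = 0.0387), a level 1.77-fold higher. On the 3 slides it was 0.76, 0.97 and 0.74, and with slide as a block the adjusted p was 0.0219. This call was close to the threshold as well. It was lost with a normexp correction (0.64, adjusted p = 0.0693), median scaling (0.269) and no filter (0.0854). It was lost without B16-M replicates 0, 1 and 2 (0.0819, 0.151 and 0.0826) and without B16-D-735 replicates 0, 1 and 2 (0.11, 0.111 and 0.0936).

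Cd274 in B16-D-735 was at -1.86, -2.02 and -1.50 (replicates 0, 1 and 2), which overlapped B16-M. Its log2 fold change was 0.15 (95% interval -0.31 to 0.62, adjusted p = 0.896), and on the slides it was between -0.03 and 0.36. Of the 7 ligands tested, 1 passed the threshold, and among all genes 1224 did (5.03%), 746 higher and 478 lower, with 3967 at an unadjusted p under 0.05. The count over all genes ranged from 530 with only these lines in the fit to 2154 with slide as a block. The 5 further ligands had log2 fold changes between -0.26 (Cd80) and 0.07 (Cd47).

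Of the 10 genes of the interferon gamma path, 1 rose and 0 fell. Irf9 had levels of 0.20, 0.38 and 0.68 in B16-M and 1.29, 1.89 and 1.82 in B16-D-735 replicates 0, 1 and 2. The lines did not overlap, and Irf9 rose by 1.25 (adjusted p = 0.0021), with 0.0598 when only these lines were in the fit. Of 4 NKG2D ligands, 1 rose. Raet1e, a stress ligand that activates natural killer cells, was at 2.17 ± 0.06 (SD, n = 3) against 1.35 ± 0.16 (n = 3) and rose by 0.83 (adjusted p = 0.0068, and 0.126 with median scaling). H60b, chosen after its values were seen, was not above background on any B16-D-735 array, unlike in the other later lines. The 7 tested genes of class I presentation had a median log2 fold change of 0.31 against -0.01 over all genes, and 0 passed the threshold in limma.

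Havcr2 fell in B16-D-735 too, with levels of -2.33, -2.66 and -2.77, by 2.01 (adjusted p = 1.09e-05) and in all 18 alternatives. Of 8 other ligand genes, 2 fell. Ceacam1 fell by 1.16 (adjusted p = 0.0157), a call lost with median scaling (0.0615), without B16-M replicate 2 (0.0741) and without B16-D-735 replicate 0 (0.0564) or 2 (0.0573). Tnfsf9, the gene of the costimulatory ligand 4-1BBL, fell by 0.63 (adjusted p = 0.0085), with 0.198 under median scaling and 0.168 with only these lines in the fit. None of the 8 genes for PD-L1 stability or of the 4 genes for soluble inhibitors passed.

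Markers of other cells moved in B16-D-735 too. Dcn, a matrix proteoglycan gene, was above background on all 3 of its arrays and on no B16-M array, at least 7.80-fold higher, and Pdgfrb was at least 2.81-fold higher (log2 fold changes 1.51 and 0.76 with a normexp correction). These are 2 of 5 tested fibroblast markers. The summed level of the list was 1.18, 1.42 and 1.58 in B16-D-735 and 0.60, 0.67 and 0.75 in B16-M. Col1a2 was its brightest gene, and 1 of the 5 was above background on no array of B16-D-735. Il3ra rose by 1.47 (adjusted p = 0.0063, and 0.0518 with median scaling), 1 of 5 tested haematopoietic markers, whose summed level lay between 10.38 and 12.05 with Il3ra the brightest and 3 of the 8 listed above background on no array. Among the 4 tested brain markers 0 passed. Whether cells other than melanoma cells had a part in the Lgals9 and Irf9 results was not tested.

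Line B16-D-739 was compared with B16-M as well. No ligand passed the threshold, and Havcr2 fell as in the other dormant melanoma lines. Cd274 had levels of -2.88, -2.55 and -2.81, all below the B16-M arrays. Its log2 fold change was -0.80 (95% interval -1.26 to -0.33), 1.74-fold lower, with an adjusted p of 0.0679. It reached the threshold in 1 of 18 alternatives, label date as a block (adjusted p = 0.0245), with 0.0525 to 0.359 in the others, and was -0.82, -0.56 and -1.01 on the 3 slides. Lgals9 had levels of -0.05, -0.06 and 0.12, all above the B16-M arrays, with a log2 fold change of 0.52 (adjusted p = 0.26) that lay between 0.41 and 0.60 on the slides. Cd47 arrays, at 2.07, 2.02 and 2.15, lay below those of B16-M at 2.25, 2.23 and 2.35, with a log2 fold change of -0.19 (adjusted p = 0.45). None of these differences passed the test, and the share of all genes with arrays apart is not given here.

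Of the 7 ligands tested in B16-D-739, 0 passed in limma, and 2, Cd274 and Lgals9, had an unadjusted p under 0.05 (0.00292 and 0.0274). Among all genes 901 passed (3.71%), with 523 up and 378 down, and without adjustment 3404 genes had p under 0.05. The count over all genes ranged from 462 with only these lines in the fit to 1485 with slide as a block, and median scaling gave 341 higher and 151 lower genes. Havcr2, at -2.79, -2.39 and -2.63, fell by 2.02 (adjusted p = 1.36e-05) and in all 18 alternatives. H60b, 1 of 4 NKG2D ligands, was above background on all 3 arrays and at least 1.58-fold higher. On the intensities as reported its adjusted p was 7.05e-06 from limma. With a normexp correction the log2 fold change of H60b was 0.47 (adjusted p = 0.048). Irf9 had levels of -0.77, -0.44 and -0.27, below B16-M, and fell by 0.92 (adjusted p = 0.0205). The direction of Irf9 was thus opposite in B16-D-739 and B16-D-735, and that difference was not tested directly. Its call was lost in 6 of 18 alternatives, without B16-M replicate 1 (0.064) or 2 (0.0993), B16-D-739 replicate 0 (0.109) or 1 (0.0596), with only these lines in the fit (0.102) and with median scaling (0.0869).

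Of 7 genes of class I presentation in B16-D-739, 2 rose and 1 fell. H2-K1 was at 0.85, 0.54 and 0.90, above all B16-M arrays, and rose by 1.00 (adjusted p = 0.0158), with log2 fold changes between 0.90 and 1.98 over the alternatives. Its call was lost with median scaling (0.109), without B16-M replicate 1 (0.0735) or 2 (0.0636) and without B16-D-739 replicate 0 (0.0725) or 2 (0.0737). H2-D1 was at 2.39, 2.22 and 2.56 and rose by 0.85 (adjusted p = 0.0333). Tapbp fell by 0.95 (adjusted p = 0.0306), and H2-T23, 1 of 8 other ligand genes, rose by 0.86 (adjusted p = 0.0381). H2-D1 and H2-T23 each passed in 8 of 18 alternatives and Tapbp in 10, with Tapbp log2 fold changes between -1.16 and -0.52. Leaving out any array of either line ended the H2-D1 call (adjusted p between 0.053 and 0.152) and the H2-T23 call (between 0.0847 and 0.143). The Tapbp call ended without B16-M replicate 1 (0.128) or 2 (0.137) or B16-D-739 replicate 0 (0.136) or 1 (0.104). With B16-D replicate 2 in the fit the H2-T23 (0.0602) and H2-D1 (0.106) calls were lost. With median scaling the adjusted p of these genes was between 0.164 and 0.218. Among markers, Pdgfrb was at least 3.53-fold higher (log2 fold change 1.01 with a normexp correction) and Col1a2, a collagen gene, fell by 1.32 (adjusted p = 0.0206), 2 of 5 fibroblast markers. Their summed level was 0.37, 0.43 and 0.45, with Col1a2 the brightest and 2 of the 5 above background on no array. Without any single array other than B16-M replicate 1, the Col1a2 call was lost (adjusted p between 0.0588 and 0.0836). Il3ra rose by 1.12 (adjusted p = 0.0403), and leaving out any array ended its call (between 0.0552 and 0.171). It was 1 of 5 tested haematopoietic markers, whose summed level lay between 9.79 and 10.22 with Itgam the brightest and 3 of the 8 listed above background on no array. Of 4 tested brain markers 0 passed. Their summed level was 0.43, 0.60 and 0.66 against 0.88, 1.45 and 1.61 in B16-M, with Mbp the brightest, at -1.45 ± 0.54 (SD, n = 3) against 0.10 ± 0.57 (n = 3, adjusted p = 0.0506), and 1 of 5 above background on no array. The part of these markers in the ligand results was not tested.

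**Figure D3:**
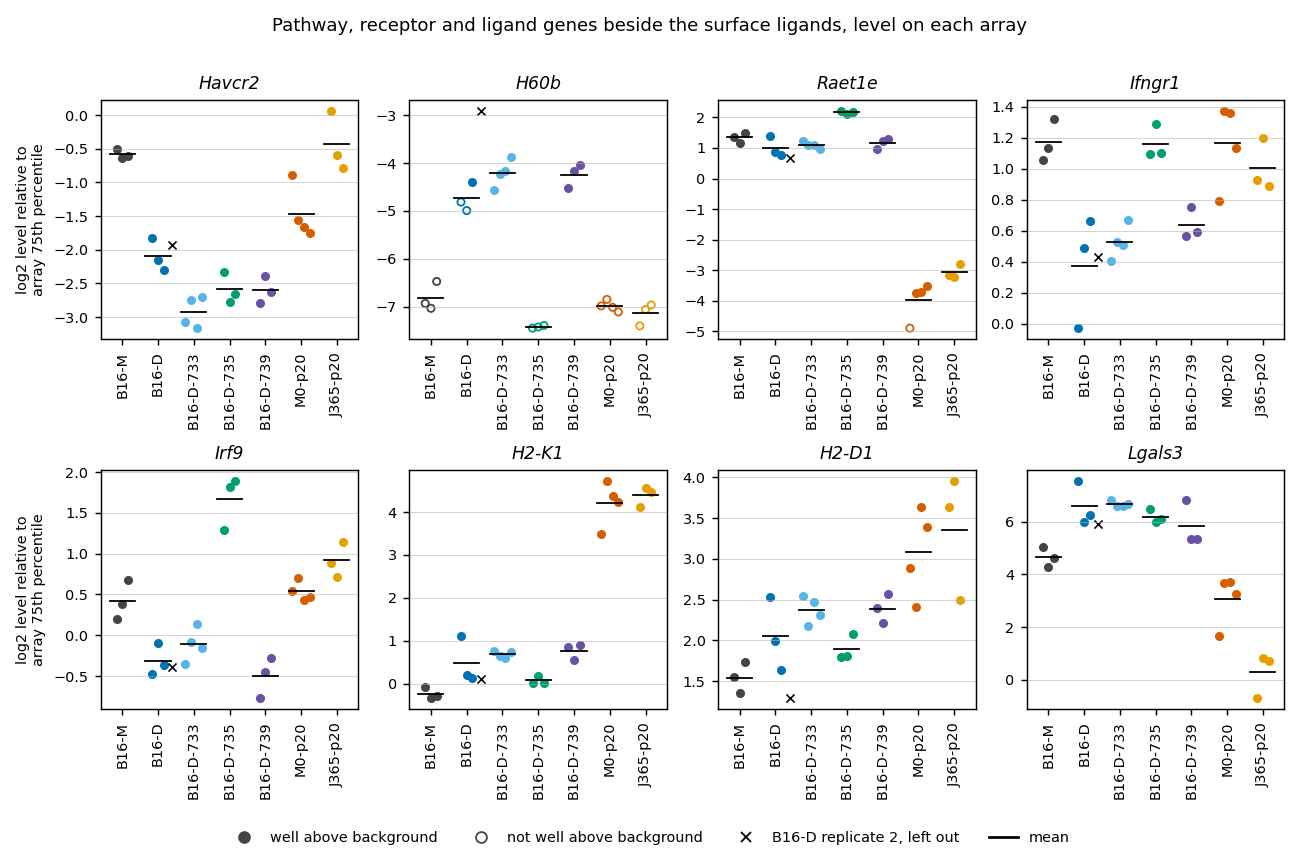
Level on every array of 8 genes beside the ligands (a receptor, 2 NKG2D ligands, interferon path genes, class I heavy chains and a galectin), as log2 intensity relative to the 75th percentile of the array, with filled points above background, hollow points not, a cross for the array left out and a bar for the mean. Havcr2 lies below B16-M on every array of the 4 dormant melanoma lines, and Irf9 is high in B16-D-735, at 1.29 to 1.89.

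Set side by side, the 4 dormant melanoma lines share the same B16-M arrays, so their differences from it are not independent. Cd274 had log2 fold changes of -0.55, -0.79, 0.15 and -0.80 in B16-D, B16-D-733, B16-D-735 and B16-D-739. For Lgals9 the values in the same order were -0.16, 0.15, 0.83 and 0.52. Those of Cd47 were -0.13, -0.03, 0.07 and -0.19, and those of Nectin2 were -0.19, 0.18, -0.22 and 0.23. No ligand passed the threshold in more than 1 of these lines, whereas Havcr2 passed in all 4, as did the marker Pdgfrb. In the order of mean Cd274 levels, B16-D-735 came first, followed by B16-M, B16-D, B16-D-733 and B16-D-739. The arrays of each line overlapped those of the next in this order. For Lgals9 the order was B16-D-735, B16-D-739, B16-D-733, B16-M and B16-D, where B16-D-735 lay apart from B16-D-739 and B16-D-739 apart from B16-D-733, while the others overlapped the next line.

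Cd276 varied more between slides than between lines. On slide 1 its level was -1.60 in B16-M, -2.40 and -1.55 in B16-D, -1.62 in B16-D-733, -1.50 in B16-D-735 and -1.16 in B16-D-739. These were the lowest values of each line. On the other slides the 5 lines lay between -0.81 and -0.18. Compared within slides, Cd276 in B16-D-739 was 0.32 to 0.55 above B16-M, and its log2 fold change of 0.44 did not pass (adjusted p = 0.824). Pvr, the stronger of the TIGIT ligands in binding, was between 2.38 and 3.54 and Nectin2 between 1.38 and 2.36 on the 16 melanoma arrays. Neither passed the threshold in any dormant melanoma line. Another Nectin2 probe lay at -0.26 ± 0.12 (SD, n = 3) in B16-M and 0.29 ± 0.17 (n = 4) in B16-D-733. Cd80, a ligand of CD28 and CTLA-4, was between -4.09 and -1.87. Its other probes were at or near background in melanoma, and with the mean of all its probes the direction of its change against B16-M turned in all 4 lines.

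The later lines were also compared with B16-D, to see what differs among dormant lines. These comparisons lay outside the rule that names genes, so the genes other than ligands named for them were chosen after their values were seen. Line B16-D-735 had the most genes past the threshold, and Lgals9 was the 1 ligand among them. Lgals9 in B16-D-735 lay above all 3 B16-D arrays and was 0.98 higher (95% interval 0.53 to 1.44, adjusted p = 0.0118). The difference was 0.78 on slide 1 and 1.41 on slide 3. It was lost without B16-D replicate 1 (0.91, adjusted p = 0.0528), with median scaling (0.178), with only these lines in the fit (0.232) and with label date as a block (0.60, adjusted p = 0.0651). The log2 fold change of Cd274 was 0.70 (95% interval 0.23 to 1.17, adjusted p = 0.0698). Cd274 passed without B16-D replicate 0 (0.99, adjusted p = 0.00291), with B16-D replicate 2 (0.75, adjusted p = 0.0397) and with a stricter filter (adjusted p = 0.05 after rounding). These were 3 of 18 alternatives, over which its log2 fold change lay between 0.38 and 0.99, with adjusted p values up to 0.405. The mean Cd274 level of B16-D-735 was 0.13 above that of B16-D replicate 0, the array without the label date. Of 7 ligands 1 passed, beside 1946 of all genes (8%), 990 higher and 956 lower, with 4780 at an unadjusted p under 0.05 and a range of 312 with only these lines in the fit to 2797 with slide as a block.

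Of the 10 genes of the interferon gamma path 3 were higher and 0 lower in B16-D-735 than in B16-D, beside the 8% of all genes. Among them, Irf9 was 1.98 higher (adjusted p = 4.15e-05) and Ifngr1 was 0.79 higher (adjusted p = 0.0082). Psmb9, an interferon-inducible subunit of the immunoproteasome, was at least 1.52-fold higher (adjusted p = 0.0288), the 1 of 7 class I presentation genes that passed. The Psmb9 call held in 7 of 17 alternatives. It was lost with a normexp correction (0.19, adjusted p = 0.526), with B16-D replicate 2 (0.59), without B16-D replicate 0 (0.0797) or 1 (0.0989) and without B16-D-735 replicate 1 (0.0844) or 2 (0.126), among others. The median log2 fold change of the 10 genes of the path was 0.18 against 0.04 over all genes. Of the 8 tested genes for other inhibitory or costimulatory ligands 1 was lower. It was Tnfsf9, with a log2 fold change of -0.73 (adjusted p = 0.0024), and its call held in 17 of 18 alternatives. Of the 8 genes for PD-L1 stability, Cmtm6 and Hip1r were lower by their log2 fold changes of -0.62 (adjusted p = 0.0096) and -0.57 (adjusted p = 0.0269). The Hip1r call held in 9 of 18 alternatives and was lost without B16-D replicate 0 (0.0568) or 1 (0.0957) or B16-D-735 replicate 1 (0.054) or 2 (0.124). Raet1e was 1.16 higher (adjusted p = 5.28e-04). H60b was above background on 1 of 3 B16-D arrays, or 2 of 4 with replicate 2, and on no B16-D-735 array. Dcn was at least 7.01-fold higher in B16-D-735 (log2 fold change 1.46 with a normexp correction), 1 of 5 fibroblast markers past the threshold. Kit was lower in B16-D-735, 1 of 5 tested haematopoietic markers, with a log2 fold change of -0.93 (adjusted p = 0.0351), or -0.94 with B16-D replicate 2 (adjusted p = 0.0216). Its call held in 9 of 18 alternatives and was lost without B16-D replicate 1 (0.132) or 3 (0.0844), without B16-D-735 replicate 2 (0.159) and with label date as a block (0.214), among others. That list had a summed level between 9.17 and 11.27 in B16-D and between 10.38 and 12.05 in B16-D-735. The part of these markers in the other results was not tested.

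Against B16-D, neither B16-D-733 nor B16-D-739 had a ligand past the threshold. In B16-D-733, 0 of 7 ligands passed in limma and 1, Nectin2, had an unadjusted p under 0.05 (log2 fold change 0.37, unadjusted p = 0.0491, adjusted p = 0.923). Of all genes 117 passed (0.481%), 100 higher and 17 lower, with 1063 at an unadjusted p under 0.05 and a range from 53 to 150. Mbp, 1 of 4 tested brain markers, was 2.12 higher in B16-D-733 than in B16-D (adjusted p = 0.0208). Its call held in 13 of 19 alternatives and was lost without B16-D replicate 0 (0.1) or 3 (0.0797) and without any single B16-D-733 array (between 0.0532 and 0.0742). Its part in the other results was not tested. In B16-D-739, 0 of 7 passed and 3, Cd276, Lgals9 and Nectin2, had an unadjusted p under 0.05 (0.0309, 0.0065 and 0.0359). There 75 of all genes passed (0.309%), 56 higher and 19 lower, with 1234 at an unadjusted p under 0.05 and a range from 1 to 102. Lgals9 arrays of B16-D-739 lay above those of B16-D, with a log2 fold change of 0.68 (adjusted p = 0.429). Without B16-D replicate 0 it was 0.98 and passed (adjusted p = 0.0107). That was the 1 of 18 alternatives that passed, and the lowest value among them was 0.30. The mean Lgals9 level of B16-D-739 was 0.08 above that of B16-D replicate 0, the array without the label date. Median scaling moved the median of all genes from 0.02 to -0.10 for B16-D-733 and from 0.04 to -0.08 for B16-D-735, and the directions of Cd274 and Lgals9 were the same under it.

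In leukemia, J365-p20 was compared with M0-p20 to ask whether the dormant leukemia line carries a different set of ligands. No ligand passed. Cd274 had levels of 0.48, 0.74, 0.98 and 0.89 in M0-p20 and 0.71, 0.86 and 0.57 in J365-p20, which overlapped. Its log2 fold change was -0.06 (95% interval -0.48 to 0.36, adjusted p = 0.985), so a fall of PD-L1 RNA of the size measured in B16-D-733 lies outside this interval. For its leukemia model the study recalls earlier work in which overexpressed PD-L1 raised the resistance to CD8 T cells. No rise of Cd274 RNA passed here, and protein was not measured on these arrays. Pdcd1lg2, the gene of the other PD-1 ligand, had levels of -0.05, 0.01, -0.33 and -0.45 in M0-p20 and 0.86, 0.36 and 0.24 in J365-p20. All J365-p20 arrays lay above all M0-p20 arrays. The log2 fold change was 0.69 (95% interval 0.19 to 1.19), with an unadjusted p of 0.0135 and an adjusted p of 0.435, and on the slides it was between 0.23 and 1.11. Lgals9 had levels of -0.49, 0.24, -0.10 and -0.42 in M0-p20 and 0.66, 0.43 and 0.39 in J365-p20, again without overlap. Its log2 fold change was 0.68 (95% interval 0.17 to 1.19, unadjusted p = 0.0151, adjusted p = 0.455). On slides 1 to 3 it was 0.15, 1.11 and 0.53. Neither of these differences passed, and the share of all genes with arrays apart is not given here.

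Cd47 was bright in both leukemia lines, with 4.62, 5.31, 5.26 and 5.20 in M0-p20 and 4.90, 4.96 and 4.87 in J365-p20, and the lines overlapped. Pvr, Cd80 and Cd276 overlapped as well, with log2 fold changes of -0.14, -0.18 and 0.09. Nectin2 was close to background, above it on all 4 M0-p20 arrays and 1 of 3 J365-p20 arrays. Of 8 ligands tested, 0 passed in limma and 2, Pdcd1lg2 and Lgals9, had an unadjusted p under 0.05. Among all 22967 genes of this fit 245 passed (1.07%), with 112 up and 133 down in J365-p20, and without adjustment 1582 genes had p under 0.05. This count ranged from 103 with the strictest filter to 584 with all lines in the fit. Median scaling moved the median of all genes from -0.02 to 0.14, and with it the sign of the Cd274 and Pvr changes turned.

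In leukemia 1.07% of all genes passed, and in the lists beside the ligands 0 genes passed in limma among 4 receptors, 9 other ligands, 4 soluble inhibitors, 10 genes of the interferon gamma path, 7 of PD-L1 stability, 8 of class I presentation and 2 NKG2D ligands that could be tested. Havcr2, chosen here after its values were seen, had levels of -0.89, -1.55, -1.67 and -1.76 in M0-p20 and 0.06, -0.59 and -0.79 in J365-p20, with a log2 fold change of 1.03 (unadjusted p = 0.0086, adjusted p = 0.352). Among markers, Fcer1g, the Fc receptor gamma chain gene of myeloid cells, rose by 3.07 (adjusted p = 5.99e-04) and in all 17 alternatives, 1 of 7 tested haematopoietic markers. The summed level of that list lay between 50.53 and 60.39 in M0-p20 and between 44.08 and 57.02 in J365-p20, with Il3ra the brightest and 1 of the 8 listed above background on no array of either line. Itgax, the CD11c gene of dendritic cells, was above background on all M0-p20 arrays and on no J365-p20 array, at least 7.28-fold lower (adjusted p = 0.0037, and -1.47 with 0.0645 under a normexp correction). It was 1 of 3 tested markers of antigen-presenting cells. Their summed level lay between 1.00 and 2.24 in M0-p20, with a median of 1.94, and was 1.51, 1.60 and 1.60 in J365-p20. The brightest of them was Adgre1, and 3 of the 6 listed were above background on no array of M0-p20 and 4 on none of J365-p20. The part of these markers in the ligand levels was not tested.

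The dormancy change of melanoma (B16-D against B16-M) was set against that of leukemia (J365-p20 against M0-p20) in a fit of 23 arrays. This tests whether a ligand moved differently in the 2 models. Of 7 ligands tested, 0 passed in limma and 1, Lgals9, had an unadjusted p under 0.05. For Lgals9 the difference was -0.84 (95% interval -1.46 to -0.22, unadjusted p = 0.0104, adjusted p = 0.289), and without B16-D replicate 0 it was -1.14 with an adjusted p of 0.0174. No other of the 25 alternatives passed, and the smallest Lgals9 difference among them was -0.46. For Cd274 it was -0.49 (95% interval -1.07 to 0.10, adjusted p = 0.809). Among all 20817 genes tested 284 passed (1.36%), 137 higher and 147 lower, with 1638 at an unadjusted p under 0.05 and a range from 126 to 534. In the lists beside the ligands, among genes chosen after their values were seen, the change differed for Havcr2 (-2.54, adjusted p = 9.20e-05), Lgals3 (4.74, adjusted p = 8.53e-04), Irf9 (-1.11, adjusted p = 0.032) and Fcer1g (-2.97, adjusted p = 1.88e-06). The Irf9 call held in 15 of 25 alternatives. Among others, it was lost without B16-M replicate 1 (0.0666) or 2 (0.111), B16-D replicate 0 (0.0712) or 3 (0.0773), M0-p20 replicate 2 (0.0691) or 3 (0.0655) and J365-p20 replicate 0 (0.0688) or 3 (0.104). Havcr2 had fallen in B16-D, while its change of 1.03 in J365-p20 did not pass, and the changes of the galectin-3 gene Lgals3 lay apart as well. In leukemia Lgals3 was at 1.67, 3.67, 3.73 and 3.26 in M0-p20 and -0.69, 0.85 and 0.71 in J365-p20, without overlap (adjusted p = 0.121).

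The parental lines M0-p20 and B16-M were compared to show how far the ligands differ by cell of origin. The leukemia line carried more RNA of the PD-1 ligands, Cd80 and Cd47, and the melanoma line more of the TIGIT ligands and Cd276. Of 8 ligands tested, 4 were higher and 3 lower in M0-p20, beside 15037 of 26757 genes (56.2%), 8303 higher and 6734 lower, so that most of the transcriptome differed as well. Without adjustment 16008 genes had p under 0.05, and between 9109 and 17137 genes passed the threshold over the alternatives. Cd274 rose by 2.72 (95% interval 2.32 to 3.13, adjusted p = 3.29e-10), 6.6-fold, and by between 2.68 and 2.84 on the 3 slides. Pdcd1lg2 was above background on all 4 M0-p20 arrays and on no B16-M array, at least 26.0-fold higher. Cd47 was 2.82 higher (adjusted p = 8.28e-13) and Cd80 1.85 higher (adjusted p = 8.96e-04). Nectin2 fell by 6.20 (adjusted p = 3.19e-13) and Pvr fell by 2.53 (adjusted p = 4.30e-07). For Nectin2, which was close to background in M0-p20, the log2 fold change lay between -6.35 and -4.39 over the alternatives. Cd276, above background on 3 of 4 M0-p20 arrays, was at least 8.21-fold lower. Lgals9 did not pass (log2 fold change 0.33, adjusted p = 0.188). Apart from Lgals9, these differences are larger than those between any dormant line and its parent, the largest of which was 0.83 for a ligand past the threshold.

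Partners of the ligands differed by origin too. The level of Sirpa was 3.90 ± 0.17 (SD, n = 3) in B16-M and above background on no M0-p20 array, at least 378-fold lower. All 8 genes of classical MHC class I presentation rose in M0-p20, with a median log2 fold change of 4.60 against 0.19 over all genes. H2-K1 was 4.44 higher, and Psmb8, an immunoproteasome subunit above background on no B16-M array, at least 411-fold higher. Of the 10 genes of the interferon gamma path 4 rose and 1 fell, with a median of 0.49, while 56.2% of all genes passed in this comparison. The list genes of this paragraph were chosen after their values were seen. Median scaling moved the median of all genes from 0.19 to 0.04 and gave 4 higher and 3 lower ligands. Over all genes it gave 6644 higher and 6797 lower, so the balance between directions turned.

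Promoter sequences were read for the ligands because Lgals9 and Cd274 were the ligands past the threshold in a dormant line. RefSeq promoters of the build GRCm38.p6, windows of 300 bases that span the start of a gene, were found for 8 of the 10 ligands, with 2 entries for Cd47. Cd274 and Pdcd1lg2 are neighbours on chromosome 19. Motifs were searched on both strands. The interferon-stimulated response element GAAANNGAAA was in 3.44% of all 32851 promoters and, among the ligands, in that of Lgals9, with matches whose first bases lie 55 bases before and 15 bases after the start. The STAT motif with a gap of 3 bases, TTCNNNGAA, was in 8.3% of promoters and in 0 of the ligands, and that with a gap of 4 bases, TTCNNNNGAA, in 6.95% and in Pdcd1lg2. The E-box CACGTG was in 7.15% and in 0 of the ligands. The loose NF-kappaB motif GGGNNNNNCC was in 50.8% and in 5 of the ligands. The promoters of Lgals9 (chr11:78984875-78985174, minus strand) and Cd274 (chr19:29367188-29367487, plus strand) follow from 5′ to 3′, with the matches to the response element in capitals, which read in reverse complement, and none of them in Cd274.
Lgals9: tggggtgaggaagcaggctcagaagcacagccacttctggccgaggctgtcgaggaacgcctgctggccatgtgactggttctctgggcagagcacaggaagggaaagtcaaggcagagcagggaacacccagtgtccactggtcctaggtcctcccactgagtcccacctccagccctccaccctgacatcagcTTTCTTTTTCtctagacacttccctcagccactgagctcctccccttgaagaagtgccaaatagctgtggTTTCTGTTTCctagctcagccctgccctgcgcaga
Cd274: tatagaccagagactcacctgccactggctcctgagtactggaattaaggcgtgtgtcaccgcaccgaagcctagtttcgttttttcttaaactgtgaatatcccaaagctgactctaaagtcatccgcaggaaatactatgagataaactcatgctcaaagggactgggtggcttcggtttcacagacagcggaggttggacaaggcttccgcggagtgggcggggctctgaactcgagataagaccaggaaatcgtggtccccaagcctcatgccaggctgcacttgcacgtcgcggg
A match is a description of these letters, and whether a factor binds there was not tested.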

How the data were processed

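Total RNA of 7 mouse cell lines was hybridized in 1 colour to Agilent arrays of 62976 spots, 24 arrays on 3 slides. Per the file headers the deposited intensity of each spot is the background-corrected signal that the authors obtained with Agilent Feature Extraction 10.7.3.1, detrended within the array, without scaling between arrays. The authors named GeneSpring for their own analysis, which was not used here.

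The intensities were put on a log2 scale and the 75th percentile of the 59305 spots that are not controls was subtracted on each array. Spots marked as outliers (2468 over all arrays) were dropped, the other spots of a probe were averaged, and 0 spots were saturated. RefSeq accessions joined probes to genes, and the probe with the highest mean over 23 arrays stood for its gene in every fit. Probes to which no gene symbol was joined were grouped by the name that the array gives them. The array has 22711 such names, which were counted as genes. A probe entered a fit when well above background on at least 3 of its arrays (for the difference between melanoma and leukemia, on 3 of each). The tests were made in R 4.3.3 with limma 3.58.1 (moderated t, Benjamini-Hochberg over all genes tested, adjusted p under 0.05, intervals of 95%), in a fit of 16 melanoma arrays, a fit of 7 leukemia arrays and, across the cell types, fits of 23 arrays. The fits were tested on simulated data. Tables and figures were made with Python 3.11.15, numpy 2.4.6, pandas 2.3.3 and matplotlib 3.10.9.

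The members and lists were chosen with earlier results of these data known. All members are named. From each other list and comparison of a dormant line with its parent, at most the 4 genes of largest change past the threshold are named, provided that the arrays of the lines did not overlap and that every array of at least 1 line was well above background. Any other gene is given as chosen after its values were seen. The values of 1 gene of the interferon gamma path are not reported here. Same-numbered arrays of B16-M deviated together from their line means with those of B16-D-733 (correlations 0.353 to 0.824) and B16-D-739 (0.578 to 0.83), so these were taken as paired from the data, while the labels do not state a pairing. Each such pair of B16-D-739, and 1 of B16-D-733, also shares a slide, and arrays of different numbers on 1 slide correlated up to 0.84 (B16-M with B16-D-735), so number and slide cannot be told apart in B16-D-739. In B16-D-733 the number did not single out every pair. B16-M replicate 1 correlated at 0.353 with B16-D-733 replicate 1 and at 0.3605 with its replicate 3, on another slide. Alternatives were quantile normalization, median scaling, 2 other filters, other probes, slide and replicate as blocks, other arrays in the fit, and each array left out. A normexp correction (offset 50) on median signals was chosen after seeing the data, in place of a planned one on mean signals that was not run. The block on the date in some labels was also chosen after seeing the data.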

Additional observations from a re-analysis of the deposited data

Results flagged for a closer look

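Among the lines with 4 arrays, single arrays stood apart from the other 3 for some ligands, by the gap to the nearest array relative to the whole range. They were Cd274 on B16-D replicate 0 (-1.92), Cd86 on B16-D replicate 2 (-2.97) and on M0-p20 replicate 1 (-6.79, at background), Cd276 on B16-D-733 replicate 2 (-1.62), Cd47 on M0-p20 replicate 0 (4.62) and Nectin2 on M0-p20 replicate 0 (-3.81). The groups are the 10 ligands in each line with 4 arrays, and chance gives about 1 such array in 20 groups. The Cd276 array lies on slide 1, where the other melanoma lines had their lowest Cd276 levels too. Leaving out B16-D replicate 0 brought Cd274 in B16-D past the threshold (-0.84, adjusted p = 0.0145).

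The dormancy change differed between melanoma and leukemia by the test of the difference for Havcr2 (-2.54), Lgals3 (4.74), Irf9 (-1.11) and Fcer1g (-2.97). On the array that was left out, B16-D replicate 2, Pdcd1lg2 (-3.90) and Cd200 (-4.51) were well above background, while neither was so on any B16-M array. That array had 90.3% of its spots above background, and the cause was not tested.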

How the results depend on the processing

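These are 3 or 4 arrays per line of cultured cells, with RNA alone and no measure of protein at the surface. Levels of some genes, such as Cd276, varied by slide. With slide as a block the count over all genes went from 1355 to 2203 in B16-D-733 against B16-M and from 245 to 224 in leukemia. Whether arrays of a line came from separate cultures is not stated. The cause of any difference was not tested. A normexp correction on mean signals was not run, since the files used hold median signals, and the normexp correction on median signals was chosen after seeing the data, as was label date as a block. Among the log2 fold changes of ligands, 793 gave the same call and direction under alternatives other than leaving out 1 array, 11 lost and 3 gained a call and 34 turned direction, all of these without a call. With 1 array left out the numbers were 455, 14, 4 and 38. Among the named genes of other lists 403 kept and 53 lost their call, and with 1 array left out 172 and 75.

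The number of ligands past the threshold in B16-D-733 against B16-M (1) was 0 with quantile normalization, median scaling, no filter, the replicate block and label date as a block. In B16-D-735 against B16-M (1) it was 0 with the normexp correction, median scaling and no filter. In B16-D-735 against B16-D (1) it was 0 with median scaling, with only these lines in the fit and with label date as a block, and 2 with the strictest filter and with B16-D replicate 2. In B16-D-739 against B16-M (0) it was 1 with label date as a block. In M0-p20 against B16-M (7) it was 4 with the strictest filter, which tests fewer ligands. With 1 array left out it lay between 0 and 1 in B16-D against B16-M, between 0 and 0 in B16-D-733 and B16-D-735 against B16-M, between 0 and 2 in B16-D-735 against B16-D, and between 0 and 1 in B16-D-739 against B16-D and in the difference of the models.

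With the replicate block, the numbers of which were taken to pair B16-M with B16-D-733 and B16-D-739, Cd274 in B16-D-733 was -0.77 with an adjusted p of 0.0664. The directions turned for Cd276 in B16-D-733 against B16-M (-0.17, from 0.01), Nectin2 in B16-D-735 against B16-D (0.055, from -0.025) and Cd274 in J365-p20 against M0-p20 (0.0079, from -0.06). The block changed no other call of a ligand, and among the other named genes that of Kit in B16-D-733 (0.96, adjusted p = 0.0507). Over all genes it gave 1109 in B16-D, 1607 in B16-D-733, 1514 in B16-D-735, 1141 in B16-D-739 and 117 in J365-p20 against their parental lines. Same-numbered arrays of M0-p20 and J365-p20 correlated between -0.0417 and 0.509 and were not taken as paired, nor were those of B16-M with B16-D (0.0362 to 0.284) and B16-D-735 (-0.342 to 0.8).

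With the mean of all probes, Cd80 turned to 0.29 in B16-D, 0.62 in B16-D-733, 0.15 in B16-D-735 and 0.21 in B16-D-739 against B16-M, to -0.14 in B16-D-735 and -0.074 in B16-D-739 against B16-D and to 0.44 in the difference of the models. Nectin2 turned to 0.10 in B16-D and Pvr to -0.036 in B16-D-735 against B16-M. With median scaling, Cd47 turned to 0.016 in B16-D against B16-M and -0.018 in B16-D-733 against B16-D, and Cd274 to 0.093 and Pvr to 0.012 in J365-p20. With B16-D replicate 2, Pvr turned to -0.046 in B16-D against B16-M and 0.11 in B16-D-735 against B16-D, and Cd80 to -0.10, -0.13 and -0.20 in B16-D-733, B16-D-735 and B16-D-739 against B16-D and to 0.047 in the difference of the models. With slide as a block, Cd276 turned to -0.071 in B16-D-733 against B16-M, Pvr to 0.030 in B16-D-735 and Cd80 to -0.013 in B16-D-739 against B16-D. With label date as a block, Lgals9 turned to 0.22 in B16-D, Cd276 to -0.30 and Pvr to 0.28 in B16-D-733 against B16-M and Nectin2 to 0.065 in B16-D-735 against B16-D. With the normexp correction, Cd47 turned to -0.0014 and Pvr to -0.060 in B16-D-735 against B16-M, Cd276 to -0.031 in J365-p20, and Cd80 to 0.0084 and Cd47 to -0.053 in the difference of the models.

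With each array left out in turn, some log2 fold changes spanned 0. Against B16-M they were Lgals9 (-0.46 to 0.067) and Pvr (-0.21 to 0.32) in B16-D, Cd80 (-0.49 to 0.053), Cd276 (-0.29 to 0.24) and Cd47 (-0.061 to 0.028) in B16-D-733, and Cd80 (-0.54 to 0.022), Cd276 (-0.29 to 0.29) and Pvr (-0.087 to 0.17) in B16-D-735. Against B16-D they were Cd274 (-0.40 to 0.044), Cd80 (-0.22 to 0.84) and Pvr (-0.45 to 0.074) in B16-D-733, Cd80 (-0.25 to 0.81), Pvr (-0.26 to 0.27) and Nectin2 (-0.21 to 0.16) in B16-D-735, and Cd274 (-0.40 to 0.041), Cd80 (-0.32 to 0.74) and Pvr (-0.47 to 0.054) in B16-D-739. In J365-p20 they were Cd274 (-0.16 to 0.0099), Cd276 (-0.34 to 0.67) and Pvr (-0.45 to 0.041), and in the difference of the models Cd80 (-0.90 to 0.16), Cd47 (-0.016 to 0.21) and Pvr (-0.065 to 0.56).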
